A study of Homo sapiens with 6 samples.

Results

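The genes described here write, erase and read DNA methylation: DNMT1, DNMT3A, DNMT3B, TET1, TET2, TET3, UHRF1, TDG and MBD2. They were taken by symbol from the count table of all 6 libraries, as 9 of the 30017 genes listed, and the rule that lists them sets no condition on a measured value. The filter on low counts kept 8 of the 9 among the 14758 genes tested. TET1 was left out by that filter and is described by its counts.

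Methyl groups on cytosine, mostly at CpG dinucleotides, are copied onto the new strand after each round of DNA replication by DNMT1, which UHRF1 brings to hemimethylated DNA. DNMT3A and DNMT3B place methyl groups at sites that had none. The TET dioxygenases oxidise 5-methylcytosine, TDG excises the most oxidised forms so that repair can restore cytosine, and MBD2 binds methylated CpG and recruits the NuRD repressor complex. In blood cells, DNMT3A and TET2 are among the genes most often mutated in clonal haematopoiesis and myeloid leukaemia. Transcript levels do not measure the methylation itself, and DNA methylation was not analysed here.

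All libraries came from BLaER1-CTCF-mAID cells, a subclone of a human B cell leukemia line that converts into macrophage-like cells (iMacs) through CEBPA, a myeloid transcription factor. In this subclone CTCF, the architectural DNA-binding protein, is fused to a degron (mAID), and the protein is degraded when the auxin IAA is added. The groups, with 2 biological replicates each, were untreated cells at 0 h, cells 96 h after induction with 17β-estradiol, IL-3 and CSF-1 (96 h control), and cells induced for 96 h that also received IAA from the start (96 h CTCF-depleted). All groups come from this 1 subclone and carry the degron, and no degron-free cells given IAA are among the libraries, so that IAA and loss of CTCF cannot be told apart.

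Library totals ranged from 9273470 to 12718780 counts. Summed over 12 B cell markers, the level was 3625 to 3667 CPM (counts scaled to library size with edgeR's TMM method) at 0 h and 434.5 to 458.2 CPM in the 4 libraries at 96 h. The sum of 12 macrophage markers was 39.68 to 42.5 CPM at 0 h and 5236 to 5552 CPM at 96 h. Transcripts of CTCF itself averaged 177 ± 5.03 CPM at 96 h without and 189.9 ± 1.41 CPM with IAA (SD, n = 2 each), and they do not report on the degraded protein. In bulk RNA, fewer cells of a type and less RNA per cell cannot be told apart, which holds for every level below.

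A gene was called higher or lower when its adjusted p was under 0.01 and its log2 fold change beyond 0.6 in either direction, by edgeR's quasi-likelihood test and Benjamini-Hochberg adjustment over all genes tested. Of the 8 members tested, TET2 was higher and UHRF1 and TDG were lower in 96 h control cells than at 0 h. Over all genes, 25.4% were called higher and 22.9% lower in this comparison, so that 3 calls among 8 members is no larger a share than the background. Between CTCF-depleted and control cells at 96 h, UHRF1 and DNMT3B were lower and 0 of the 8 members were higher, beside 7.03% and 5.41% of all genes. At an unadjusted p below 0.05 edgeR gave 1 member higher, DNMT3A, and 3 lower (UHRF1, DNMT3B and DNMT1), and DESeq2 called 0 higher and 1 lower (UHRF1). The shares of all genes at these other settings were not taken. Such counts, here and in the lists below, therefore have no background beside them. Relative to 0 h, CTCF-depleted cells had 1 member higher (TET2) and 4 lower (UHRF1, TDG, DNMT1 and DNMT3B), beside 27.2% and 25.2% of all genes. Both comparisons with 0 h use the same 0 h libraries. For 2 against 2 libraries the smallest two-sided p of an exact permutation test is 0.333, so that the p-values given rest on the spread estimated across genes.

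**Figure D1:**
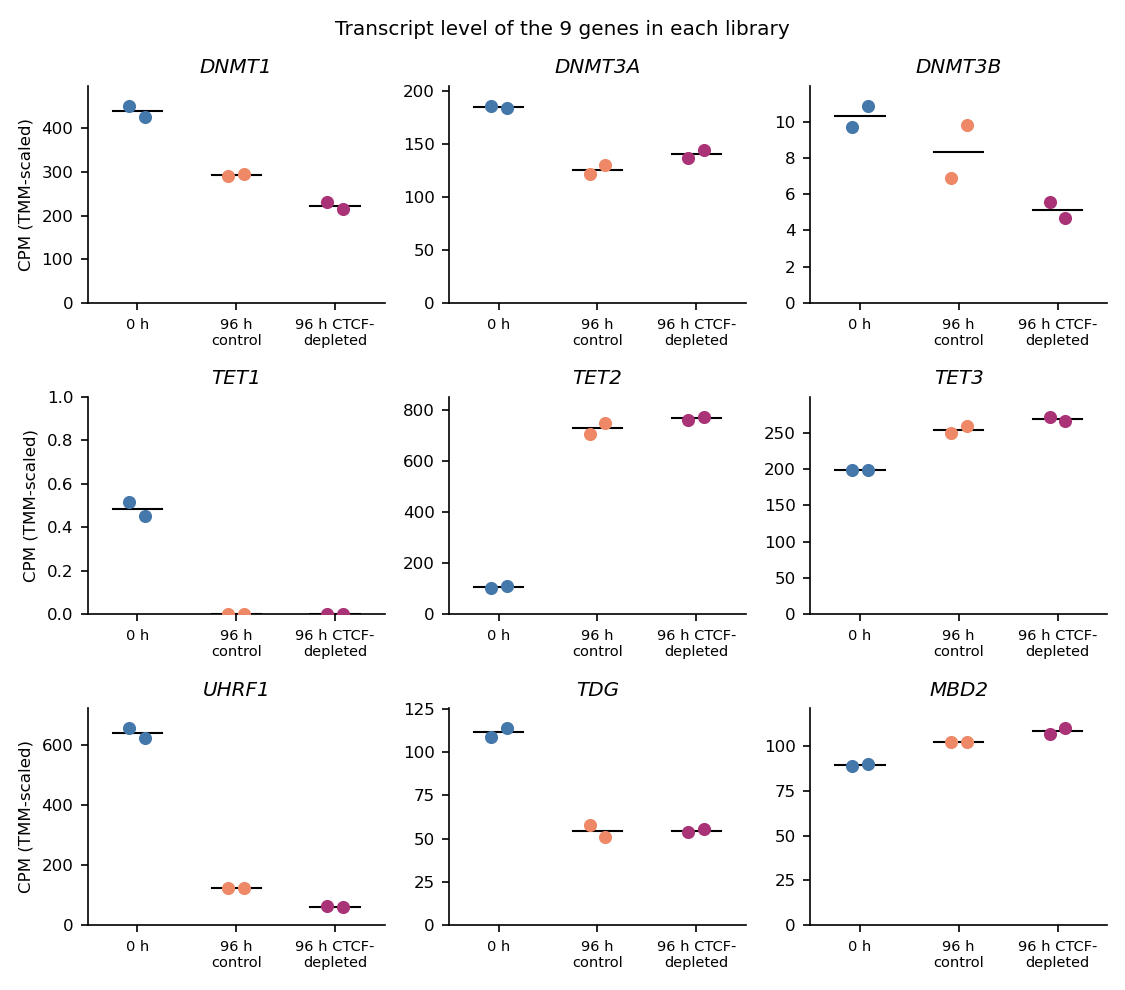
TMM-scaled CPM (vertical axes, from 0, 1 scale per gene) of the 9 genes in each of the 6 libraries. Points are libraries and black lines are group means (n = 2). TET2 stands at 102 and 111 CPM at 0 h and between 709 and 775 CPM at 96 h, while UHRF1 drops from 624 to 659 CPM at 0 h to 60.9 to 62.2 CPM in CTCF-depleted cells.

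**Figure D2:**
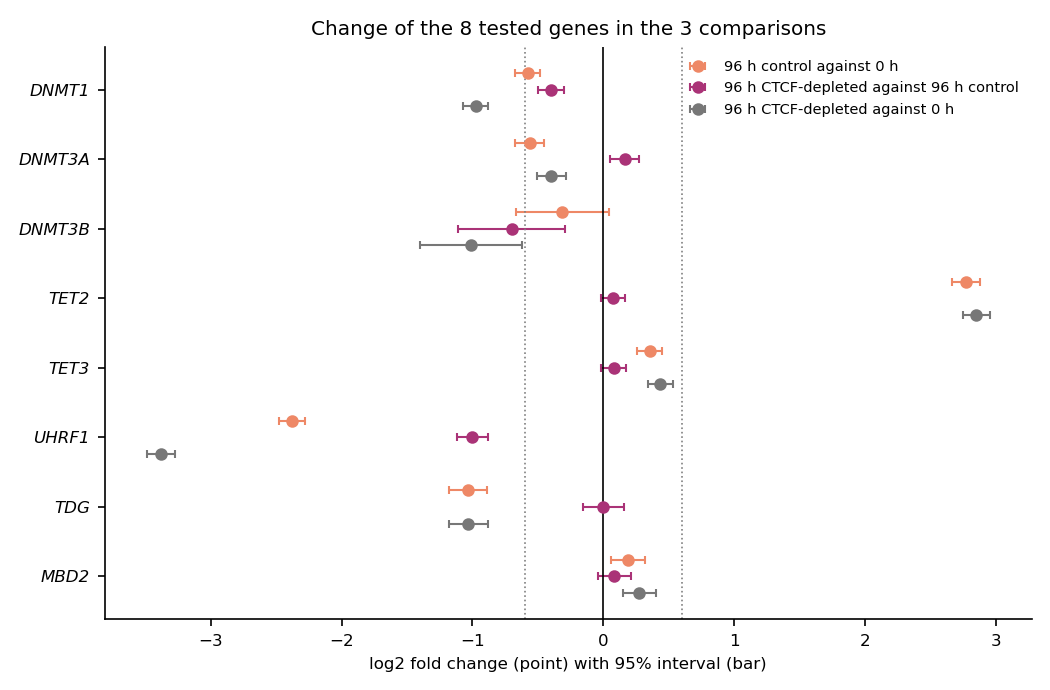
Log2 fold change (points) with its 95% interval (bars) for the 8 genes tested, in 96 h control against 0 h, 96 h CTCF-depleted against 96 h control and 96 h CTCF-depleted against 0 h. Dotted lines mark the fold change threshold of 0.6 on either side of 0. UHRF1 lies beyond the lower line in all 3 comparisons, and DNMT3B has the widest bars.

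The maintenance genes UHRF1 and DNMT1 are given first. The promoter sequences of both are shown because they hold a match to the E2F motif, the binding motif of the factors that drive S phase genes, and that of TET2 is shown because TET2 is the one member called higher. The sequences are from RefSeq on GRCh38.p14, 5′ to 3′ on the strand of the gene. Capitals mark the E2F match.
UHRF1, 250 bases before the start, chr19:4909251-4909500, plus strand: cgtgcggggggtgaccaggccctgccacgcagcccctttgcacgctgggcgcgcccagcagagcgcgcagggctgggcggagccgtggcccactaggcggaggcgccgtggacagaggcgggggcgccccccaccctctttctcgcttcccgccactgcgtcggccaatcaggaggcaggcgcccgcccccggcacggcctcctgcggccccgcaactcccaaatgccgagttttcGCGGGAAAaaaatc
DNMT1, last 150 bases before the start and first 6 after it, chr19:10194948-10195103, minus strand: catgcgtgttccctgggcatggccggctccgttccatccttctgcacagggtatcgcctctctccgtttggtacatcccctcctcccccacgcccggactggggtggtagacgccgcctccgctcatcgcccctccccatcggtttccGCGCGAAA
TET2, 250 bases before the start, chr4:105145625-105145874, plus strand: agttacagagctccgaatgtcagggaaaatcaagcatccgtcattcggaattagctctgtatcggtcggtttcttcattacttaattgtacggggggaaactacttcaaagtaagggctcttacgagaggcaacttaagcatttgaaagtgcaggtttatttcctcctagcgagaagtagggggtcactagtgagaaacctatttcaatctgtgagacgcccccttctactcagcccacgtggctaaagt

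The motifs were searched on both strands in the window from 250 bases before to 50 bases after the start, for all 9 members and for 34794 promoters in all. The E2F motif was spelled TTTCCCGC, TTTGGCGC, TTTCGCGC or TTTGCCGC, and 3.31% of all promoters held at least 1 of the spellings. UHRF1 held it at bases -14 to -7 and DNMT1 at bases -2 to 6, counted from the start base as 1 with no base 0. The other 7 members held none of these letters. Among the genes of a list of S phase genes, 10 of 13 promoters held it, and among the partners of maintenance methylation 4 of 8 did (CDCA7, HELLS, LIG1 and PCNA). A C/EBP motif (TTGCNNAA, in 10.5% of all promoters), an ETS motif (CCGGAAGT, in 4.13%) and the CTCF core consensus (in 0.474%) had no match in any member's window. The CCAAT box, CCAAT, was found in UHRF1, TDG and DNMT3B, and in 34.6% of all promoters. The CpG count in the window was 45 in TET3, 36 in UHRF1, 32 in MBD2 and 30 in DNMT1, beside 13 in TET2, 10 in TET1, 3 in DNMT3B and a median of 14 over all promoters. The RefSeq start of DNMT3B lies 17467 bases from the first base of its MANE Select transcript, that of TET2 1001 bases and that of DNMT3A 558 bases, so that these windows, with the TET2 sequence printed above, lie at another annotated start than that of the MANE Select transcript. A match describes letters in a window and is not a measured binding site.

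UHRF1 (chromosome 19, 4903080 to 4962154, plus strand, hg38) reads hemimethylated CpG and recruits DNMT1 to it. It stood at 659 and 624 CPM in the 0 h libraries, at 124 and 123 CPM in control libraries and at 62.2 and 60.9 CPM in CTCF-depleted libraries. The 3 groups did not overlap, and replicates differed by far less than groups. UHRF1 fell by 2.38 on the log2 scale in control cells (SE 0.0494, adjusted p = 1.516e-44). In CTCF-depleted cells it was lower again than in control cells, with a log2 fold change of -1.002 (95% interval -1.121 to -0.884, adjusted p = 3.239e-21). Relative to 0 h, the level in CTCF-depleted cells was 10.4-fold lower (log2 fold change -3.38, adjusted p = 2.768e-50). Only 4.43% of all genes tested had a lower log2 fold change than UHRF1 in control cells against 0 h, and 4.57% did so in CTCF-depleted against control cells.

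DNMT1 (chromosome 19, 10133342 to 10231286, minus strand), the maintenance methyltransferase, had 452 and 426 CPM at 0 h, 291 and 297 CPM in control cells and 230.4 and 216 CPM in CTCF-depleted cells. The control libraries lay below those at 0 h, and the CTCF-depleted libraries lay below both, without overlap. The log2 fold change of control cells against 0 h was -0.58 (SE 0.0468, adjusted p = 9.638e-17), which missed the fold change threshold. Without 0 h replicate 2 it was -0.66, without 96 h control replicate 1 -0.60 and without 96 h CTCF-depleted replicate 1 -0.62, each past both thresholds. That of CTCF-depleted against control cells was -0.40 (95% interval -0.50 to -0.30, adjusted p = 9.503e-10) and did not reach the fold change threshold either. Against 0 h, DNMT1 fell by 0.98 on the log2 scale in CTCF-depleted cells (adjusted p = 3.221e-26). An exon of DNMT1 overlaps one of S1PR2 on the same strand; S1PR2 itself was counted at 8.15 to 12.9 CPM in the 6 libraries.

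The ratio of UHRF1 to DNMT1 in CPM was 1.46 at 0 h, 0.42 in control cells and 0.276 after CTCF depletion. The recruiter was lowered more than the enzyme both in control cells against 0 h and in CTCF-depleted against control cells. The 96 h groups are parallel, and the difference was not tested.

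In control cells against 0 h, 22.9% of all genes tested were called lower and 25.4% higher. Between the 96 h groups these shares were 7.03% and 5.41%. They are the background for the edgeR calls at both thresholds in this list and those below, and not for the unadjusted or DESeq2 counts. Other genes of the maintenance machinery form a list of 8, all tested. Of these, 6 were lower and 0 higher in control cells than at 0 h (unadjusted p below 0.05 in edgeR: 7 lower and 1 higher; DESeq2 calls: 6 lower and 0 higher), and the median log2 fold change was -1.16, beside 0.0151 over all genes. KIAA0101 (PCLAF), a PCNA partner, fell by 1.69 on the log2 scale, HELLS, the chromatin remodeller needed for methylation of packed DNA, by 1.48, its activator CDCA7 by 1.43 and CDCA7L by 1.22. Between CTCF-depleted and control cells 2 of the 8 were lower and 0 higher (unadjusted: 8 lower and 0 higher; DESeq2: 2 lower and 0 higher), with a median of -0.492. These were HELLS, at 80.3 ± 4.52 and 48.9 ± 1.42 CPM (log2 fold change -0.72, adjusted p = 1.544e-12), and the DNA ligase LIG1, at 85.6 ± 3.42 and 53.1 ± 0.192 CPM (log2 fold change -0.69, adjusted p = 5.328e-12).

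Genes of the cell cycle moved with the maintenance genes. The summed level of 16 S phase genes was 3395 to 3540 CPM at 0 h, 1429 to 1442 CPM in the control libraries and 984.9 to 993.6 CPM after CTCF depletion. Of the 16, 14 were lower in control cells against 0 h, beside 22.9% of all genes. In CTCF-depleted against control cells 7 were lower, beside 7.03% of all genes. For 10 mitosis genes the sums were 2790 to 2853, 1826 to 1898 and 1119 to 1129 CPM, and 9 were lower in each of these comparisons. No gene of either list was measured at 0 in any library. The log2 fold change of UHRF1 lay below that of every S phase gene in control against 0 h (lowest -2.14) and in CTCF-depleted against control cells (lowest -0.88), as a description of values with no test of the difference. The part of the cell cycle in the levels of UHRF1 and DNMT1 was not tested.

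Of the de novo methyltransferases, DNMT3A (chromosome 2, 25227855 to 25342590, minus strand) had 186 and 184 CPM at 0 h, 121 and 129.7 CPM in control cells and 137 and 144 CPM in CTCF-depleted cells. It was the one DNMT gene whose CTCF-depleted libraries lay above the control libraries. Neither difference passed both thresholds: control against 0 h gave a log2 fold change of -0.56 (SE 0.055, adjusted p = 1.256e-13), and CTCF-depleted against control gave 0.16 (95% interval 0.05 to 0.28, adjusted p = 0.0166). Without 0 h replicate 2 the first of these was -0.61, and without 96 h control replicate 2 it was -0.60, both past the thresholds.

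DNMT3B (chromosome 20, 32762385 to 32809359, plus strand), the other de novo enzyme, was counted only 94 and 145 times at 0 h, 78 and 106 times in control and 60 and 51 times in CTCF-depleted libraries. In CPM these are 9.70 and 10.9 for 0 h, 6.88 and 9.82 for control, and 5.56 and 4.70 for CTCF-depleted libraries. The control libraries overlapped those at 0 h, and the CTCF-depleted libraries lay below both other groups. The log2 fold change was -0.31 in control cells against 0 h (95% interval -0.67 to 0.04, adjusted p = 0.105) and -0.70 in CTCF-depleted against control cells (95% interval -1.11 to -0.29, adjusted p = 0.004537). The second call was lost in DESeq2 (adjusted p = 0.0854), without 96 h control replicate 2 (log2 fold change -0.39, edgeR adjusted p = 0.249), without 96 h CTCF-depleted replicate 1 (-0.78, adjusted p = 0.0103) and without 96 h CTCF-depleted replicate 2 (-0.55, adjusted p = 0.078). Against 0 h, DNMT3B fell by 1.01 on the log2 scale in CTCF-depleted cells (adjusted p = 6.439e-06).

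In a list of 6 genes linked to the DNMT3 enzymes, not all of them proven guides, 5 were tested. Of these, 2 were lower in control cells than at 0 h, beside 22.9% of all genes. PSIP1, a reader of methylated lysine 36 of histone H3, fell by 0.83 on the log2 scale, and WHSC1 (NSD2), which places that mark, by 0.66. In CTCF-depleted against control cells 0 of the 5 were called (unadjusted p below 0.05 in edgeR: 4 lower and 0 higher; DESeq2: 0 called).

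Of the TET genes, TET2 (chromosome 4, 105145875 to 105279816, plus strand), the main TET enzyme of myeloid cells, had 102 and 111 CPM at 0 h, 709 and 749.7 CPM in control cells and 763 and 775 CPM in CTCF-depleted cells. All 4 libraries at 96 h lay far above the 0 h libraries. TET2 rose 6.84-fold in control cells (log2 fold change 2.77, SE 0.0522, adjusted p = 1.093e-46) and 7.22-fold in CTCF-depleted cells (2.85, adjusted p = 2.668e-47). Between the 96 h groups the log2 fold change was 0.08, with a 95% interval of -0.01 to 0.17 and an adjusted p of 0.179. That interval holds no difference as large as the threshold of 0.6.

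TET3 (chromosome 2, 73984910 to 74108176, plus strand) had 198 and 199 CPM at 0 h, 249.8 and 259 CPM in control cells and 272 and 266 CPM in CTCF-depleted cells. The groups did not overlap, but the differences were small: the log2 fold change was 0.36 in control against 0 h (adjusted p = 2.3e-09, under the fold change threshold) and 0.08 in CTCF-depleted against control cells (95% interval -0.01 to 0.18, adjusted p = 0.177). An exon of TET3 overlaps that of a lncRNA on the same strand in GENCODE release 44.

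TET1 (chromosome 10, 68560337 to 68694487, plus strand) was near the limit of detection, with 5 and 6 counts at 0 h and 0 counts in each of the 4 libraries at 96 h. With a floor of 3 counts per group, the level was at least 3.52-fold lower in control cells and at least 3.45-fold lower in CTCF-depleted cells than at 0 h, on the TMM-scaled sizes. These bounds take the 11 counts at 0 h as measured, without their own counting error, and the main fit did not test them. The alternative without the filter on low counts did include TET1. It called 3 members lower in control cells against 0 h (UHRF1, TDG and DNMT1) and 4 in CTCF-depleted cells against 0 h (these and DNMT3B). TET1 was called in neither.

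TDG (chromosome 12, 103965822 to 103988874, plus strand), the glycosylase that acts after TET oxidation, had 109 and 114 CPM at 0 h, 58.1 and 51.1 CPM in control cells and 53.9 and 55.5 CPM in CTCF-depleted cells. It fell by 1.03 on the log2 scale in control cells (SE 0.0737, adjusted p = 6.028e-19). The groups at 96 h overlapped, and their log2 fold change was 0.0023 (95% interval -0.16 to 0.16, adjusted p = 0.988). TDG shares a same-strand exon overlap with a lncRNA and has a processed pseudogene, TDGP1, also on chromosome 12, so that its reads may be split. DNMT3A and TET1 have processed pseudogenes as well, DNMT3AP1 on chromosome 2 and TET1P1 on chromosome 13, and the same limit holds for their counts.

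Per kb of the MANE Select transcript, the scale on which genes can be set side by side, the level summed over the 3 TET genes was 27.6 ± 0.681 CPM per kb at 0 h, 97.1 ± 3.57 in control cells and 102.5 ± 0.53 after CTCF depletion. TET2 made up 40.1% ± 1.37 of this sum at 0 h, 78.3% ± 0.238 in control cells and 78.2% ± 0.471 after CTCF depletion, and TET3 nearly all the rest. The sum over the 3 DNMT genes went the other way, from 105.2 ± 3.46 CPM per kb to 70.9 ± 1.84 and 58.4 ± 1.55. DNMT1 held 79.1% ± 0.750 of it at 0 h, 78.5% ± 0.983 in control cells and 72.4% ± 1.48 after CTCF depletion, while DNMT3A held 18.7% ± 0.493, 18.8% ± 0.379 and 25.6% ± 1.66 (SD, n = 2 each). The share of DNMT3A in CTCF-depleted libraries, 24.4% and 26.8%, lay above those of the 4 other libraries, which were at most 19.05%. With the length of all annotated exons in place of the MANE Select transcript, DNMT3A held 30.9%, 31.0% and 40.1%.

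**Figure D3:**
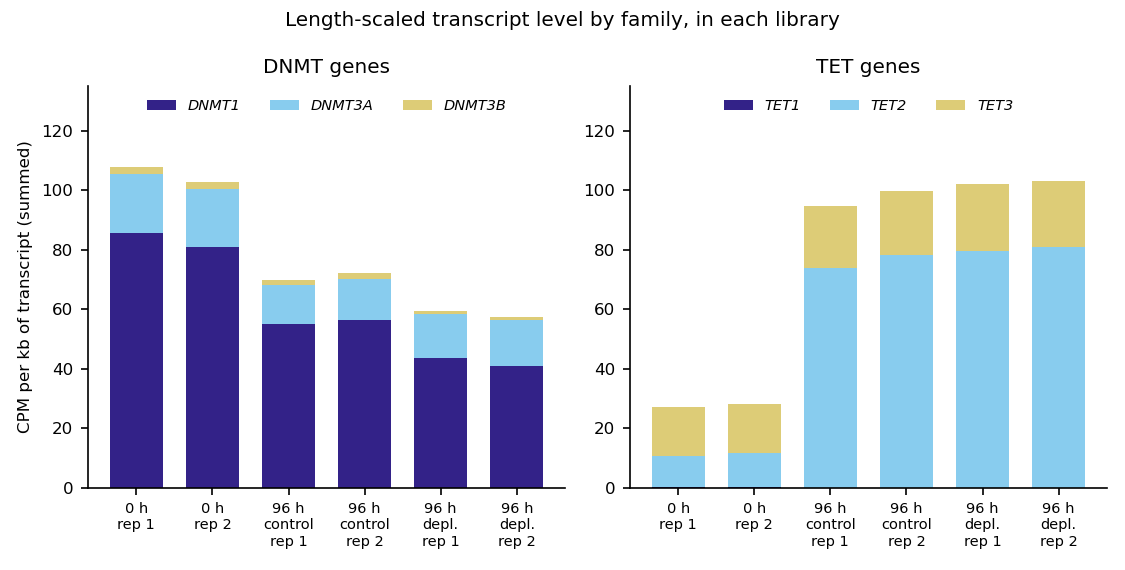
Stacked bars of CPM per kb of the MANE Select transcript (vertical axis, from 0) for the DNMT genes (left) and the TET genes (right) in each of the 6 libraries. The DNMT sum is highest at 0 h (102.8 and 107.7) and lowest in CTCF-depleted cells (57.3 and 59.5), and the TET sum is lowest at 0 h (27.1 and 28.1).

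The order of the members by CPM per kb changed with conversion. At 0 h UHRF1 led (164.6 ± 6.44), followed by DNMT1 (83.2 ± 3.53), TDG (35.1 ± 1.16), DNMT3A (19.6 ± 0.128), MBD2 (17.7 ± 0.161), TET3 (16.5 ± 0.041), TET2 (11.1 ± 0.65), DNMT3B (2.37 ± 0.192) and TET1 (0.0502 ± 0.00484). In control cells TET2 led (76.0 ± 3.03), before DNMT1 (55.7 ± 0.756), UHRF1 (31.6 ± 0.0889), TET3 (21.1 ± 0.542), MBD2 (20.2 ± 0.0321), TDG (17.1 ± 1.54), DNMT3A (13.3 ± 0.616) and DNMT3B (1.93 ± 0.478). In CTCF-depleted cells the order was TET2 (80.2 ± 0.902), DNMT1 (42.3 ± 1.99), TET3 (22.3 ± 0.368), MBD2 (21.5 ± 0.49), TDG (17.2 ± 0.368), UHRF1 (15.8 ± 0.241), DNMT3A (14.9 ± 0.576) and DNMT3B (1.18 ± 0.14). Among the neighbours in these orders, TET3 and MBD2 in CTCF-depleted cells differed by less than the sum of their SDs. UHRF1 thus went from the first place at 0 h to the sixth in CTCF-depleted cells. With the length of all annotated exons, several places changed. At 0 h MBD2 and TET3 then came before DNMT3A. DNMT1 took the fourth place in both 96 h groups. It came after UHRF1 and TET3 in control cells and after TET3 and MBD2 in CTCF-depleted cells. UHRF1 took the fifth place in CTCF-depleted cells, before TDG.

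The TET enzymes depend on 2-oxoglutarate, and a list of 10 cofactor and partner genes had 9 tested. In control cells against 0 h, 2 were higher and 2 lower, beside 25.4% and 22.9% of all genes. D2HGDH, which clears the inhibitor D-2-hydroxyglutarate, was at 30.1 ± 1.32 and 90.8 ± 4.01 CPM (log2 fold change 1.60), and IDH1, which makes 2-oxoglutarate in the cytosol, at 51.1 ± 1.84 and 99.2 ± 2.31 CPM (0.96). Mitochondrial IDH2 fell by 1.08 on the log2 scale. In CTCF-depleted against control cells 1 of the 9 was lower: CXXC5, a CXXC-domain protein that binds unmethylated CpG, was at 51.4 ± 0.471 and 28.6 ± 0.038 CPM (log2 fold change -0.85, adjusted p = 6.471e-12). None was higher (0 in edgeR and in DESeq2, and 1 at an unadjusted p below 0.05 in edgeR).

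Among 10 genes that act with or after TDG in base excision repair, 1 was higher and 5 were lower in control cells than at 0 h. The shares of all genes called in these directions were 25.4% and 22.9%. MBD4, a glycosylase that also reads methylated CpG, rose by 1.54 on the log2 scale. NEIL3, a glycosylase of cycling cells, fell by 1.24, PARP1 by 1.18 and the gap-filling polymerase POLB by 1.09. The call of NEIL2 was lost without 0 h replicate 1. In CTCF-depleted against control cells NEIL1, a glycosylase that can follow TDG, was higher, at 5.91 ± 1.28 against 2.23 ± 0.907 CPM (log2 fold change 1.41, adjusted p = 4.182e-05). Without 96 h control replicate 1 the NEIL1 call was lost (adjusted p = 0.0146). NEIL3 was lower, at 6.65 ± 0.938 against 10.6 ± 0.214 CPM (-0.67, adjusted p = 0.001023), and this call was lost in DESeq2 and without either control replicate or CTCF-depleted replicate 2. Both are genes of low level.

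MBD2 (chromosome 18, 54151606 to 54224669, minus strand), the reader among the members, had 89.2 and 90.4 CPM at 0 h, 102 and 103 CPM in control cells and 107 and 110.45 CPM in CTCF-depleted cells. The groups did not overlap, and the steps were the smallest of the tested members in the comparisons with 0 h: a log2 fold change of 0.19 in control cells (adjusted p = 0.006275) and of 0.27 in CTCF-depleted cells (adjusted p = 0.000108), both under the fold change threshold. Between the 96 h groups it was 0.08 (95% interval -0.04 to 0.21, adjusted p = 0.305).

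Of 9 other methyl-CpG readers, 8 were tested. Beside 22.9% of all genes called lower and 25.4% higher in control cells against 0 h, 1 reader was lower and 4 were higher. Beside MBD4 these were ZBTB4, a zinc finger reader (log2 fold change 1.36), MBD6 (0.83) and MBD5 (0.68), although the last pair belong to the family by sequence rather than by proven binding. The call of MBD5 was lost without 0 h replicate 2. MBD3, the NuRD relative of MBD2, fell by 0.66 on the log2 scale. In CTCF-depleted against control cells 0 of the 8 were called (unadjusted p below 0.05 in edgeR: 1 lower and 0 higher; DESeq2: 0 called).

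The 11 subunits of NuRD, the deacetylase and remodelling complex that MBD2 recruits, were all tested, and 2 were lower and 0 higher in control cells than at 0 h (unadjusted: 9 lower and 1 higher; DESeq2: 2 lower and 0 higher). Over all genes, 22.9% were called lower in this comparison, so that 2 of 11 is no larger a share than the background. The deacetylase HDAC2 fell by 1.01 on the log2 scale and the scaffold MTA1 by 0.78. In CTCF-depleted against control cells 0 were called (unadjusted: 7 lower and 0 higher; DESeq2: 0 called).

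Methyl groups reach the DNMT enzymes through S-adenosylmethionine. All 11 genes of that cycle were tested. In control cells 2 were higher and 4 lower than at 0 h, beside 25.4% and 22.9% of all genes. MTRR, which reactivates methionine synthase, lay at the fold change threshold (0.60), and its call was lost under 7 of 11 alternatives. The folate enzymes MTHFD2 and MTHFD1 fell by 1.12 and 0.95 on the log2 scale, and AHCY, which removes S-adenosylhomocysteine, by 0.84. Between the 96 h groups 0 of the 11 were called (unadjusted: 6 lower and 1 higher; DESeq2: 0 called).

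Over all 64 of these other pathway genes, 61 were tested, and 8 were higher and 22 lower in control cells than at 0 h, with a median log2 fold change of -0.374, beside 25.4% and 22.9% of all genes called in these directions. In CTCF-depleted against control cells 1 was higher and 4 lower, with a median of -0.115 beside -0.0309 over all genes, and beside 5.41% of all genes called higher and 7.03% called lower.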

How the data were processed

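RNA-seq was measured in 6 libraries, 2 biological replicates in each of 3 groups, from total RNA depleted of rRNA with a stranded kit. The authors processed the reads with the nf-core/rnaseq pipeline, aligned them to hg38 with STAR 2.6.1d, counted them per gene with featureCounts 2.0.6 and deposited raw counts without normalization. The annotation release and strand setting are not given in the sources used here. Counts of genes on the same strand with overlapping exons could be split or lost.

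Tests were made with edgeR 4.0.16 in R 4.3.3 (filterByExpr, TMM, 1 quasi-likelihood model over all 6 libraries, condition as the only term). Genes were called at the thresholds of the study's methods. Log2 CPM used a prior count of 2, and the common biological coefficient of variation was 3.96%. The genes tested held at least 99.89% of the counts of a library. Intervals cover the spread between libraries, floors the counting error only. On simulated data for the comparison of the 96 h groups, edgeR recovered 99 of 100 genes changed 2-fold and 100 of 100 changed 4-fold among 14347 genes, with 0 false calls. In this simulation the changed genes were drawn only from genes above a set mean level. Each gene was given the spread of the trend at its level. The recovery therefore does not cover genes of low level such as NEIL1. Replicates of a group differed by more than sampling noise. Levels per length used the MANE Select transcripts of GENCODE release 44. Tables were made with Python 3.11.15 and pandas 2.3.3, plots with matplotlib 3.10.9.

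Named are all members, the called genes of the other lists, led by the 4 with the largest change, the 2 genes with the nearest pattern to each member, and CTCF. Some genes that this rule covers are left out by name. The members and lists were chosen with earlier results of these data known. Alternatives were DESeq2 1.42.0, RLE scaling, no filter, a fit of the 4 libraries compared alone, a replicate block, another threshold, and leaving out each library.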

Additional observations from a re-analysis of the deposited data

Results flagged for a closer look

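Among the members, the change over 96 h was called different between conversion with and without CTCF for UHRF1 and DNMT3B. The test was that of CTCF-depleted against control cells, which start from the same 0 h libraries. The difference was -1.002 on the log2 scale for UHRF1 and -0.6985 for DNMT3B. That of DNMT3B rests on low counts and lost its call under 4 alternatives, DESeq2 among them. That of UHRF1 kept its call under every alternative. DNMT1 also differed in this test (log2 fold change -0.40, edgeR adjusted p = 9.503e-10) and missed only the fold change threshold. Groups of 2 libraries are too small to mark a single library as far from the others.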

How the results depend on the processing

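Of 264 values of single members under the alternatives, 253 kept their direction and their side of the thresholds, 4 lost a call, 6 gained one and 1 turned its sign. The 4 lost calls are those of DNMT3B between the 96 h groups, and the 6 gained ones are those of DNMT1 and DNMT3A in control cells against 0 h, which lay close to the fold change threshold (DNMT1 -0.62 without the filter on low counts). The sign turned for TDG between the 96 h groups, which had no call in any case and ranged from -0.056 to 0.13 when 1 library was left out, with the lowest value without 96 h control replicate 2. With a threshold of 0.05 on the adjusted p and none on the fold change, 3 members were higher and 4 lower in control cells against 0 h, 1 higher and 3 lower in CTCF-depleted against control cells, and 3 higher and 5 lower in CTCF-depleted cells against 0 h. For the other pathway genes the counts were 18 higher and 35 lower, 3 higher and 25 lower, and 16 higher and 41 lower in these comparisons. The share of all genes at this looser threshold was not taken, so these counts cannot be set against a background. DESeq2 called 1 member lower in CTCF-depleted against control cells. Leaving out 1 library at a time, 2 to 4 members were lower in control cells than at 0 h, 1 to 2 members were lower in CTCF-depleted than in control cells, and 0 to 1 other pathway genes were higher in CTCF-depleted than in control cells. With the replicate block, 1 member was higher and 2 lower in control cells against 0 h, 0 and 2 in CTCF-depleted against control cells, and 1 and 4 in CTCF-depleted cells against 0 h, and no call of a member changed. Nothing in the labels or data pairs the replicate numbers, since the differences between replicates 1 and 2 had correlations across genes of -0.0194, 0.0109 and -0.0294 between pairs of groups. Depth limits TET1 and DNMT3B most, and a fit that leaves an arm with 1 library takes its spread from the other groups.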

Other observations

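Germline genes are often kept silent by promoter methylation in somatic cells. Of 15 such genes listed, 2 passed the filter on low counts, and between 9 and 12 of the 15 had 0 counts in any one library. TDRD9, a helicase of the piRNA pathway, was at 0.0375 ± 0.053 CPM at 0 h, at 271.5 ± 7.89 CPM in control cells and at 203 ± 19.7 CPM after CTCF depletion (SD, n = 2 each), and was called higher at 96 h in both groups by edgeR. Between the 96 h groups its log2 fold change was -0.42 (adjusted p = 4.532e-09), under the fold change threshold. The meiotic gene SYCP3 had a log2 fold change of 1.76 in control cells against 0 h (adjusted p = 0.0246) and was not called.

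The genes with the pattern closest to each member were found by the distance between log2 CPM values centred on their mean over the 6 libraries. UHRF1 was closest to MYT1L (distance 0.143), which had 28.6 ± 1.06, 5.52 ± 0.443 and 2.72 ± 0.0555 CPM in the 0 h, control and CTCF-depleted groups, and to FBLN1 (0.176), and only 18 genes lay within a distance of 0.5. TET2 was closest to TOR4A (0.101) and ADD3 (0.106), the latter at 103 ± 0.526, 715 ± 6.54 and 742 ± 14.6 CPM, and 134 genes lay within 0.5. DNMT1 was closest to USP6NL (0.0612) and ACLY (0.0686), DNMT3A to SACM1L (0.0395) and CAMSAP2 (0.0751), and DNMT3B to ULK4 (0.21) and ESPL1 (0.234). TET3 was closest to BCL2L13 (0.0655) and AFF4 (0.0679), TDG to SLC43A3 (0.084) and FBXO21 (0.0869), and MBD2 to MARCH6 (0.0402) and TAF10 (0.0461). Between 1101 and 3048 genes lay within 0.5 of DNMT1, DNMT3A, TET3, TDG and MBD2, and 204 of DNMT3B. Of the members themselves, TET3 and MBD2 were closest to each other (0.201) and TET2 and UHRF1 farthest apart (6.66).

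Markers of other blood cells were also listed. Of 10 T and NK cell markers 3 were tested, NCAM1, NKG7 and CD2. All 3 were higher in control cells than at 0 h, beside 25.4% of all genes. The summed level of the 10 was 36.4 to 39.7 CPM at 0 h and 116 to 131 CPM at 96 h. Most of it came from NCAM1 (35.2 CPM at 0 h, 90.6 CPM in control cells) and NKG7 (2.66 and 34.7 CPM). The T cell genes CD3D, CD3G and CD5 were at 0 in every group. CD3E and CD8A averaged at most 0.0463 and 0.139 CPM in any group. For 8 erythroid and platelet markers, 3 of them tested, the sums were 2.48 to 4.54 CPM and 25.8 to 29.8 CPM. Most of the sum at 96 h came from PPBP (17.3 CPM in control cells) and ITGA2B (9.14 CPM), both called higher than at 0 h, while GP9 was called lower, and HBA1, HBB and ALAS2 were at 0 in every library. Their part in the levels of the members was not tested.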
